A study of Mus musculus with 4 samples.

Results

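The proteasome is the barrel-shaped protease that degrades ubiquitin-tagged proteins and supplies peptides for MHC class I. Its subunit transcripts were measured by single-cell RNA sequencing in migratory dendritic cells (DCs) of the mouse ear-draining lymph node. Members were the gene rows whose symbol is Psma, Psmb, Psmc, Psmd or Psme followed by a number, with Psmb8 and Psmb9 left out. This gave 41 of 22631 gene rows, from 43 symbols that match the pattern. Psmb10, Psme1 and Psme2, whose transcripts interferon-gamma is known to induce, were kept apart from the 38 constitutive members. Members were picked by name with earlier results of these data known, and the rule itself uses no measured value.

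All mice carried the Tnfsf4KI/+ genotype, in which the gene of the costimulatory ligand OX40L also reports as blue fluorescent protein (BFP). Ears were left without treatment or given MC903, an analogue of vitamin D known to raise TSLP in skin. Doses fell on days 0, 2 and 4 and harvest on day 5. Each sort took 5000 BFP+ and 7000 BFP- cells that were B220-, CD11cint and MHCIIhi, by the labels. The 4 populations are therefore untreated BFP+, untreated BFP-, MC903 BFP+ and MC903 BFP-. Strain background, age and the number of mice per pool are not given in the sources used here. Each treatment was 1 capture with 1 pool per population, so MC903 treatment, capture and library cannot be told apart. No difference below has a replicate check, no test was run, and each 95% interval is an exact Poisson interval that covers counting error only.

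A standard proteasome carries a 19S cap on one or both ends of a 20S core. The core stacks outer rings of alpha subunits (Psma genes) on inner rings of beta subunits (Psmb genes), and Psmb5, Psmb6 and Psmb7 encode its chymotrypsin-like, caspase-like and trypsin-like catalytic subunits. The cap uses ATPases (Psmc genes) to unfold substrates and non-ATPase subunits (Psmd genes) to bind and deubiquitinate them. In immune cells Psmb10 can replace the Psmb7 product in newly built cores. Psme1 and Psme2 encode the alpha and beta chains of the PA28 activator, which opens the core and is known for its part in antigen presentation. Psme3 encodes the nuclear PA28 gamma, and Psme4 encodes PA200.

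The sequences upstream of 3 catalytic subunit genes are shown because the MC903 comparison turned on these genes. Windows of 250 bases before to 50 bases after a start were taken from RefSeq on GRCm38 and were found for 34 of the 41 members. Psma8, Psmb1, Psmb2, Psmb7, Psmc3, Psmd3 and Psmd7 were not among them. The 250 bases before the start lie at chr14:54617996-54618245 (minus strand) for Psmb5, at chr11:70525107-70525356 (plus strand) for Psmb6 and at chr8:105938393-105938642 (minus strand) for Psmb10. They read 5′ to 3′ along the gene, with matches to the searched motifs in capitals:
Psmb5: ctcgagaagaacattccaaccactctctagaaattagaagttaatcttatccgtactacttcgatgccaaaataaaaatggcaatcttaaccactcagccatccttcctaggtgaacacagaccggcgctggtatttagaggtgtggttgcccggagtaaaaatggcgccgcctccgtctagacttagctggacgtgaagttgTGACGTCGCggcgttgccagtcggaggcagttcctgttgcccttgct
Psmb6: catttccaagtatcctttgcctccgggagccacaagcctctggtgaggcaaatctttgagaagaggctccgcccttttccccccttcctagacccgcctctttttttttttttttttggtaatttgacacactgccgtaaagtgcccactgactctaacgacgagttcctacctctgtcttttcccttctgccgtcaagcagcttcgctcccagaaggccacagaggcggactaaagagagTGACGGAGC
Psmb10: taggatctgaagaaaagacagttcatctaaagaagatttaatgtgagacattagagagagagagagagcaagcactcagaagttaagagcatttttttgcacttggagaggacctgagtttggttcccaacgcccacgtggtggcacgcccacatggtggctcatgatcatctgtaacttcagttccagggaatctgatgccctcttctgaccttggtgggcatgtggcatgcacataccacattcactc
The capitals mark the core of the antioxidant response element, TGACNNNGC on either strand, to which NRF1 and NRF2 type factors are known to bind. Its first base lies 47 bases before the start of Psmb5 and 9 bases before that of Psmb6, and the Psmb10 sequence has no capitals. The motif was in the windows of 6 of 31 constitutive members (19.4%), namely Psmb5, Psmb6, Psmc6, Psmd9, Psmd12 and Psme4, against 14.0% of 27025 genes in the table. The CCAAT box (CCAAT on either strand) was in 13 of 31 (41.9%) against 41.1% of all genes. The core of the interferon-stimulated response element (GAAANNGAAA on either strand) was in 3 of 31 (9.68%, Psmb3, Psmd4 and Psmd9) against 3.99%. Of Psmb10, Psme1 and Psme2, only the Psme1 window held that core, with its first base 10 bases after the start. No match to one motif overlapped a match to another in the members' windows, and a match describes letters, not binding.

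After filtering, 8422 of 9520 untreated and 5636 of 6316 MC903 barcodes remained, and 23 barcode names occur in both captures. Barcodes with markers of other lineages were left out, and 1792 untreated BFP+, 774 untreated BFP-, 1503 MC903 BFP+ and 2337 MC903 BFP- DCs were summed. Their sums held 6584300 to 24797505 unique molecular identifiers (UMIs, each counting 1 captured transcript). Levels are given in CPM, the UMIs of a gene per 1000000 UMIs of all genes in the population. Median UMIs per barcode were 3001, 8254, 10232 and 9810 in that order, so the untreated BFP+ population was the shallowest. The BFP transcript was at 69.4 CPM in untreated BFP+ DCs against 2.43 in untreated BFP- DCs, and at 104 against 8.67 after MC903, which follows the labels. The untreated capture left 59.8% of its barcodes without a hashtag, and with the dominant hashtag in place of the model the untreated populations would have been 459 BFP+ and 4250 BFP- DCs. All 9 migratory DC markers were detected in every population, Ccr7 at 2550 to 2888 and Itgax, the CD11c gene, at 4.71 to 31.0 CPM. The summed T cell marker list was at 125, 66.4, 22.1 and 21.3 CPM and the B cell list at 82.0, 24.3, 22.3 and 19, in the order untreated BFP+, untreated BFP-, MC903 BFP+ and MC903 BFP-. B cell-like barcodes held their own list at 3503 in the untreated and 6431 in the MC903 capture, and their part in the results below was not tested. All 9 migratory DC markers were detected in these barcodes too, with a summed list of 24180 and 23955 CPM. The DC populations had 33628 to 37054. Ccr7 was at 1274 and 1010 and Itgax at 12.9 and 3.01 in the B cell-like barcodes. Detection of all 9 markers therefore does not tell the DCs from barcodes left out.

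Transcripts of all 38 constitutive members together made up 4434 CPM in untreated BFP+ DCs, 4833 in untreated BFP- DCs, 4387 in MC903 BFP+ DCs and 4852 in MC903 BFP- DCs. Of these members 35 reached 20 CPM in at least 1 population. Psmd5, a 19S assembly chaperone, stayed at 11.7 to 14.6. Psma8, the testis alpha subunit, was at 0.401 to 0.759, and Psmb11, the thymic beta subunit, had no UMI in either untreated population. Levels count captured molecules and are not scaled by transcript length.

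Core transcripts had higher medians than cap transcripts, with overlapping ranges. The 20S alpha members that passed the filter had population medians from 144 (Psma4) to 439 (Psma7) CPM, with 197 in the middle. The beta members ran from 130 (Psmb6) to 427 (Psmb1). ATPases ran from 34.7 (Psmc1) to 101 (Psmc3) and non-ATPases from 27.9 (Psmd9) to 185 (Psmd4, a ubiquitin receptor). Groups were set by symbol, so the non-ATPases and the 19S sums include the assembly chaperones Psmd5, Psmd9 and Psmd10. With these left aside, the lowest non-ATPase was Psmd3 at 29.5. Psme3 and Psme4 had medians of 26.6 and 27.3. In GENCODE M21 on GRCm38, Psmb5 lies at chr14:54614119-54618022, Psmb6 at chr11:70525367-70527858, Psmb7 at chr2:38588036-38644087 and Psmb10 at chr8:105935735-105938444. Psme1 (chr14:55578123-55581529) and Psme2 (chr14:55587441-55591113) stood above every constitutive member in all 4 populations, at 1094 to 1281 and 1124 to 1359.

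**Figure D1:**
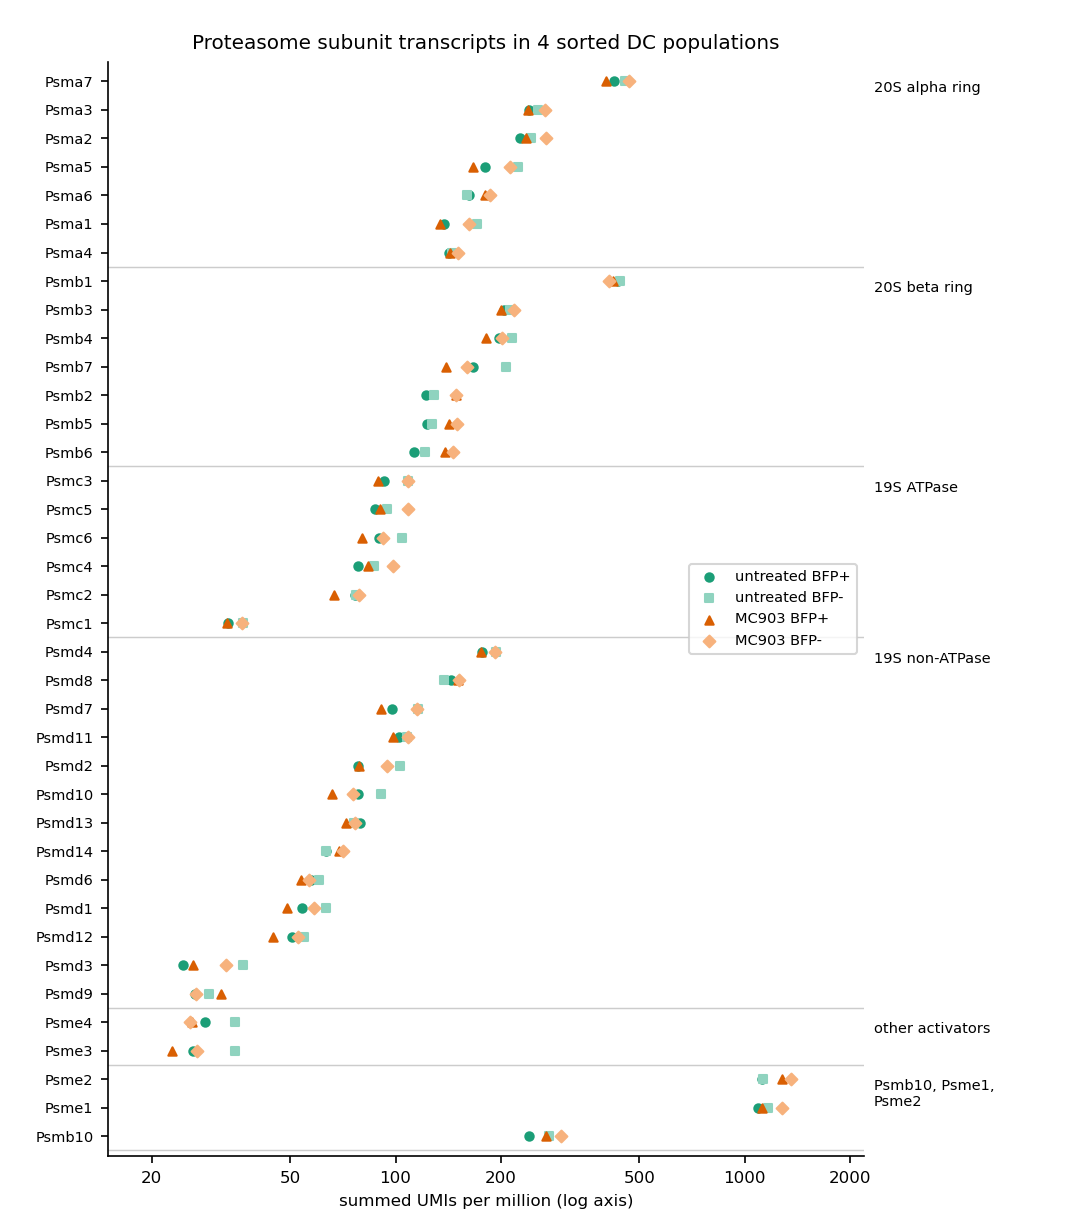
Levels of the 38 members that reached 20 CPM, in CPM on a log axis, with 1 point for each of the 4 DC populations and members grouped by role. Psme1 and Psme2 lie above 1000 in every population, and core subunits lie mostly above cap subunits.

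BFP+ DCs had slightly less proteasome transcript than BFP- DCs in both captures. The constitutive sum was 8.27% lower in untreated BFP+ DCs, a log2 ratio of -0.12 (interval -0.15 to -0.10). After MC903 it was 9.60% lower, at -0.15 (-0.16 to -0.13). With dominant hashtags the ratios were -0.13 (-0.16 to -0.11) and -0.16 (-0.17 to -0.15). Core and cap differed by similar amounts: the 20S sum was at -0.11 and the 19S sum at -0.14 in untreated DCs, and at -0.13 and -0.17 after MC903. The ATPases were the group furthest below 0 after MC903, at 442 against 523 CPM, a log2 ratio of -0.24 (-0.29 to -0.20).

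No member was 1.5-fold apart between BFP+ and BFP- DCs in either capture, where 5.4% of 5093 genes were in the untreated and 3.26% of 4791 genes in the MC903 capture. The difference was instead small and shared by most members. Of 35 constitutive members, 31 were below 0 in the untreated capture (88.6%, against 60.0% of all genes) and 32 in the MC903 capture (91.4%, against 58.1%), and 28 were below 0 in both (80%, against 43.7% of the 4646 genes measured in both). The interval lay below 0 for 16 members and above 0 for none in untreated DCs, 45.7% and 0% of the members, where 24.1% and 14.2% of all genes were. After MC903 it lay below 0 for 24 (68.6%) and above 0 for 1 (2.86%), where 27.2% and 18.9% of genes were. Whether an interval excludes 0 depends on the UMIs counted. Here and below, such shares are set against genes not matched to the members by level. The median log2 ratio over the members was -0.11 and -0.16, against -0.05 and -0.03 over all genes. TMM scaling left 27 and 29 of the 35 members below 0, with medians of -0.06 and -0.11. Intervals below 0 then numbered 10 and 22 by TMM and 8 and 22 by median-of-ratios factors, and intervals above 0 numbered 0 and 2 by TMM and 1 and 2 by median-of-ratios.

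The interval lay below 0 in both captures for 15 members (42.9%, against 13.7% of genes) and above 0 in both for none (against 9.23%). They were Psma1, Psma2, Psma5 and Psma7 of the alpha ring, Psmb4 and Psmb7 of the beta ring, the ATPases Psmc3 and Psmc6, the non-ATPases Psmd1, Psmd2, Psmd3, Psmd4, Psmd7 and Psmd10, and the activator Psme3. By TMM the untreated intervals of Psma2, Psma7, Psmb4, Psmd1 and Psmd4 included 0, and by median-of-ratios those of Psmc6 and Psmd10 did as well. Psma5 was at 181 against 224 CPM in untreated and 167 against 213 in MC903 DCs, log2 ratios of -0.31 (-0.42 to -0.20) and -0.35 (-0.42 to -0.28). Psmd3, a scaffold subunit of the cap's lid, was at 24.6 against 36.6 and 26.3 against 32.7, the lowest untreated ratio at -0.57 (-0.86 to -0.29) and -0.32 after MC903. Psmd2, the large base subunit that binds ubiquitin-like domains, was at -0.40 (-0.57 to -0.24) and -0.27 (-0.37 to -0.17). Psma1 was at -0.31 and -0.27, and Psmd7, the partner of the deubiquitinase Psmd14, at -0.25 and -0.34. Psmc3 was at -0.23 and -0.29. Psme3 was at 26.3 against 34.6 and at 22.8 against 26.9, ratios of -0.40 (-0.68 to -0.11) and -0.24 (-0.42 to -0.05).

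The members least different between BFP+ and BFP- DCs included the deubiquitinase itself. Psmd14 was at 63.3 CPM in both untreated populations and at 68.8 against 70.6 after MC903, with intervals of -0.19 to 0.19 and -0.15 to 0.07. Psmb1, the most abundant beta subunit, was at -0.02 and 0.04 with both intervals including 0. Psmd8, Psmd13 and Psma6 were the highest in untreated DCs beside Psmd14, at 0.07, 0.06 and 0.02, and their intervals included 0. Psmd9, an assembly chaperone, was the member with its interval above 0 after MC903, at 31.5 against 26.7 and 0.24 (0.07 to 0.41), although it was at -0.13 (-0.43 to 0.16) in untreated DCs. Psmd5, below the level filter, was at 0.04 after MC903. Psme4 was at -0.29 (-0.57 to -0.01) in untreated and 0.02 (-0.16 to 0.20) in MC903 DCs. BFP- DCs held at least 25% more of 3 members in the untreated capture (Psmd2, Psmd3 and Psme3) and of 2 after MC903 (Psma5 and Psmd7), 8.57% and 5.71% of 35. Across all genes they did for 13.2% and 6.6%. BFP+ DCs held 25% more of 6.87% and 4.26% of genes, and of no member.

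Catalytic subunits differed from each other. Psmb7 was at 167 CPM in untreated BFP+ DCs against 207 in BFP- DCs, and at 140 against 161 after MC903. Its log2 ratios were -0.31 (-0.42 to -0.20) and -0.20 (-0.28 to -0.13). Psmb5 was at 123 against 127 and 143 against 150, ratios of -0.05 and -0.08, and Psmb6 at 113 against 122 and 139 against 146, ratios of -0.11 and -0.07. Their untreated intervals included 0. Among the inducible genes Psmb10 was lower in BFP+ DCs of both captures, at 242 against 275 and at 270 against 297, ratios of -0.18 (-0.28 to -0.09) and -0.14 (-0.19 to -0.08). Psme1 was at -0.09 (-0.14 to -0.05) and -0.19 (-0.22 to -0.17), but its untreated value was -0.04 (-0.08 to 0.01) by TMM. Psme2 was at -0.01 (-0.06 to 0.03) in untreated and -0.09 (-0.11 to -0.06) in MC903 DCs, and its untreated value was 0.04 by TMM and 0.06 (0.01 to 0.10) by median-of-ratios.

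**Figure D2:**
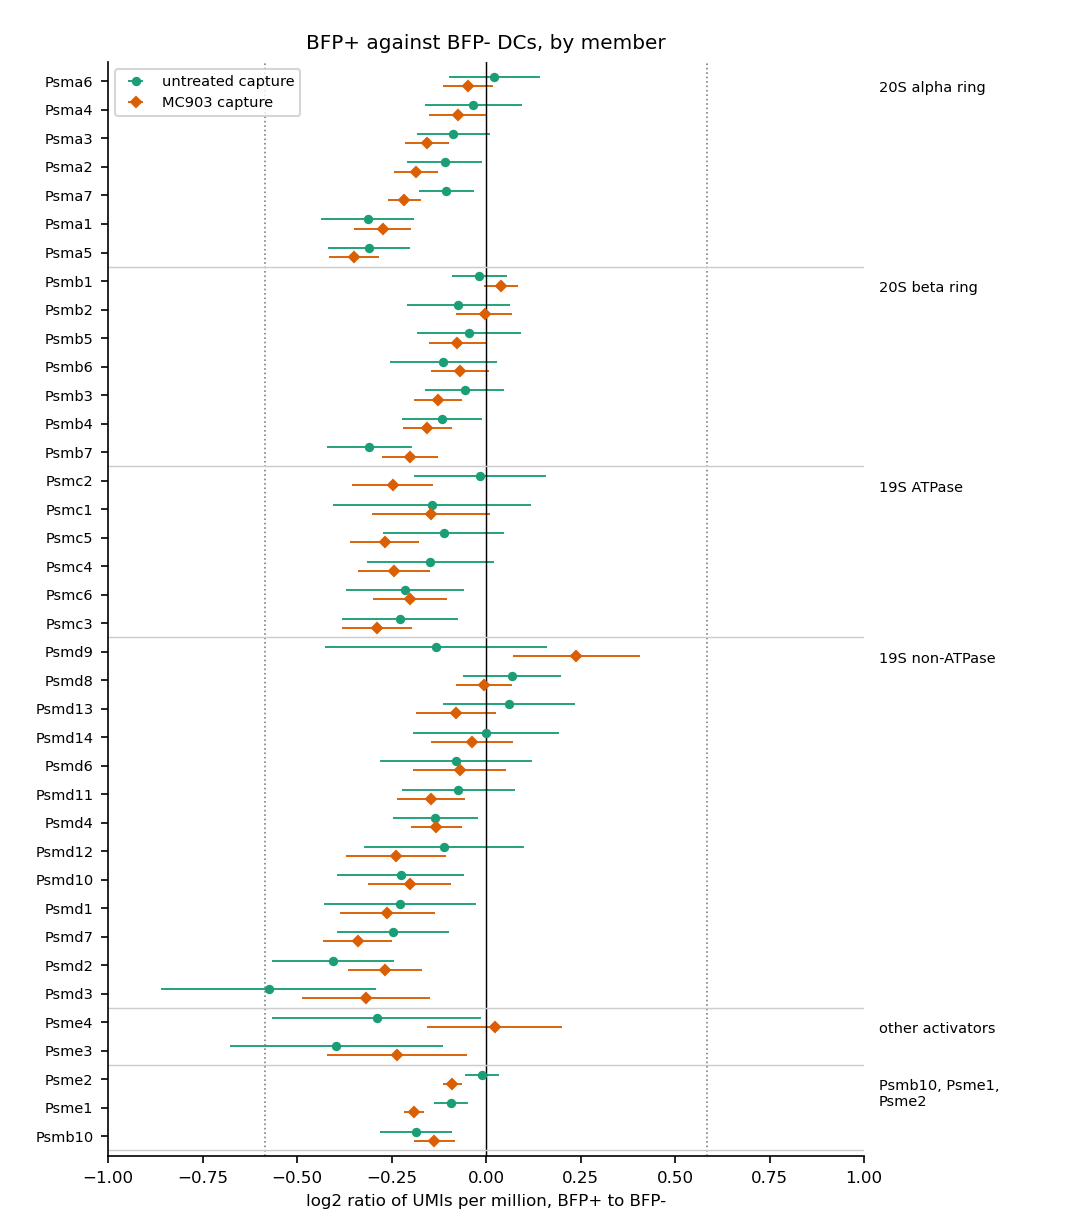
Log2 ratio of CPM of BFP+ to BFP- DCs for each of the 38 members past the low-level filter, in the untreated (circles) and MC903 (diamonds) captures, with exact Poisson 95% intervals. Dotted lines mark 1.5-fold, which no member's ratio reaches, and most points lie left of 0.

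The reporter difference varied with the depth of the barcodes compared. Untreated BFP+ and BFP- DCs of over 4000 and up to 8000 UMIs had constitutive sums of 4472 (4377 to 4568) and 4453 (4335 to 4575) CPM, and above 12000 UMIs they had 4511 (4400 to 4624) and 5094 (5008 to 5182). After MC903 the BFP+ sum was lower above 4000 UMIs too, at 4161 against 4466, 4349 against 4867 and 4483 against 4995 in successive bins. Within barcodes of 4000 to 12000 UMIs the log2 ratio was -0.09 (-0.12 to -0.05) in untreated and -0.14 in MC903 DCs. Each barcode thinned to 2000 UMIs held a mean of 8.79 ± 3.40 (SD over 1600 barcodes) constitutive UMIs in untreated BFP+ DCs and 9.39 ± 4.61 (751) in untreated BFP- DCs. The MC903 values were 8.67 ± 3.63 (1492) and 9.44 ± 4.61 (2322). Before thinning the means per 2000 UMIs were 8.85, 9.41, 8.65 and 9.54, and 192, 23, 11 and 15 shallower barcodes were left out. The variance over the mean was 1.32 and 1.52 in BFP+ and 2.27 and 2.25 in BFP- DCs, so the BFP- barcodes were the more uneven.

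**Figure D3:**
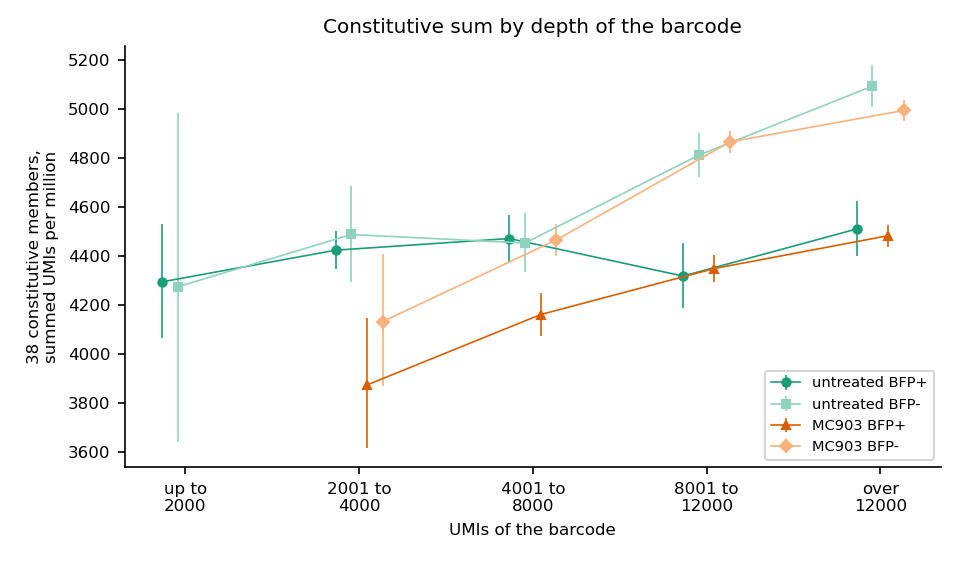
Summed CPM of the 38 constitutive members by the number of UMIs of the barcode, for the 4 DC populations, with exact Poisson 95% intervals. BFP- points separate upward from BFP+ points in the deeper bins, and the untreated populations overlap up to 8000 UMIs.

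By DC type, the constitutive sum over each capture was highest in mature cDC1-like cells, but not in every population. Types were gated on at least 2 detected markers of a fixed list. Unless a population is named, they were summed over all DC barcodes of a capture, whatever their hashtag call. Conventional type 1 DCs (cDC1) are known for cross-presenting antigen on MHC class I, a task that uses the proteasome. Cells in this gate held 5569 constitutive CPM in the untreated capture (5484 to 5655, 509 barcodes) and 5715 in the MC903 capture (5658 to 5772, 589 barcodes). DCs placed in no gate held 4684 and 4471, giving log2 ratios of 0.25 (0.22 to 0.28) and 0.35 (0.34 to 0.37). These ungated DCs include barcodes whose markers tied between gates. By hashtag population the gate and ungated DCs held 5111 against 4373 in untreated BFP+, 6141 against 4729 in untreated BFP-, 4629 against 4321 in MC903 BFP+ and 5935 against 4514 in MC903 BFP- DCs. The MC903 BFP+ mature cDC1-like gate held 64 barcodes, under the minimum set for comparing types. Its values are given as levels, and the ratios at a fixed type mix also use them. In MC903 BFP+ DCs the cDC2-like barcodes were above this gate, at 4740 CPM (231 barcodes). With at least 3 markers required, the ratios were 0.37 and 0.40.

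The leading genes of this gate had to be looked at before its values were used. In the MC903 capture 1 barcode of the gate, with 162867 UMIs, took 76.4% of them from salivary gland secretory genes such as Smr3a and Bpifa2. Without the 50 MC903 DC barcodes that held over 1% of such UMIs (1 in the untreated capture), the MC903 ratio was 0.38 (0.36 to 0.40). Of the gate's 10 leading genes 5 were then its own markers, and the others were Mpeg1, Aif1, Ccl4, Gclc and Ifitm1. Barcodes enter the gate by these markers, so the markers' lead is built in and is no check of cell identity.

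In mature cDC1-like cells 10 of 35 constitutive members were at least 25% higher than in ungated DCs of the untreated capture and 15 in the MC903 capture (28.6% and 42.9%). Across all genes but the gate markers 10.5% and 14.2% were. No member was 1.5-fold higher in the untreated capture, where 3.73% of genes were, and Psma5 and Psmd7 were after MC903, where 6.1% of genes were. Without the barcodes over 1% salivary UMIs, 10 members were 25% higher and none 1.5-fold higher in the untreated capture, and after MC903 18 were 25% higher and 3 were 1.5-fold higher. The member added was Psma7, at 626 against 416 CPM, a ratio of 0.59 (0.54 to 0.64). With those barcodes kept, as in all values of this gate that follow, 32 and 31 members were above 0. The medians were 0.24 and 0.30 against -0.02 and -0.05 over all genes. Psma5, an alpha ring subunit, was at 274 against 200 CPM in untreated and 323 against 175 in MC903 DCs, log2 ratios of 0.45 (0.34 to 0.57) and 0.88 (0.81 to 0.96). By population its ratio was 0.54 and 0.64 in untreated BFP+ and BFP- DCs and 0.90 in MC903 BFP- DCs. Psmd7 was at 0.42 (0.25 to 0.58) and 0.62 (0.51 to 0.73), but its intervals included 0 in untreated BFP+ DCs (-0.29 to 0.52). Psma7 was at 0.35 and 0.56, and the catalytic Psmb7 at 0.17 and 0.51. Psmd4 and Psmc5 were at 0.40 in untreated DCs, and Psmc5 was at 0.51 after MC903.

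Not every member was higher in this gate. Psmb1 was at 423 against 434 CPM after MC903, a ratio of -0.04 (-0.10 to 0.02), and at 0.18 in untreated DCs. Psmb4 was at 0.05 (-0.08 to 0.17) in untreated and 0.28 in MC903 DCs. Psmd9, Psme3 and Psme4 were at -0.05, -0.01 and -0.02 in untreated and -0.24, -0.00 and -0.23 in MC903 DCs, all with intervals including 0. The inducible genes were higher in mature cDC1-like cells. Psmb10 was at 349 against 255 and 397 against 275 (0.46 and 0.53), Psme1 at 1503 against 1108 and 1742 against 1208 (0.44 and 0.53), and Psme2 at 1352 against 1128 and 1733 against 1255 (0.26 and 0.47).

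The other gates lay closer to ungated DCs. Their median depths were above that of ungated DCs too, except in Langerhans cell-like barcodes after MC903, at 8537 against 8717 UMIs. Langerhans cell-like barcodes (398 and 316) were at 4672 and 4812 constitutive CPM, log2 ratios of -0.00 (-0.04 to 0.03) and 0.11 (0.08 to 0.13). cDC2-like barcodes (892 and 780) were at 4302 and 4713, ratios of -0.12 (-0.15 to -0.10) and 0.08 (0.06 to 0.09). DCs with Cxcl1, Clu and Ehf (1129 and 197) were at 4460 and 4585, ratios of -0.07 and 0.04. DCs with Dkk2 and Nrg1, of which 663 were in the MC903 capture, were at 4533 there, a ratio of 0.02. The untreated capture held 68 of them, too few to compare. Langerhans cell-like barcodes held more of the inducible core subunit than cDC2-like barcodes: Psmb10 was at 324 and 341 in the former and at 202 and 227 in the latter. PA28 transcripts were also lower in cDC2-like than in mature cDC1-like DCs, Psme1 at 843 and 966 and Psme2 at 883 and 1277.

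BFP+ and BFP- DCs held different shares of these gates, and the reporter contrast varied between them. Mature cDC1-like barcodes were 5.92% of untreated BFP+ and 17.6% of untreated BFP- DCs, and 4.26% and 17.6% after MC903. Inside the untreated gate BFP+ barcodes were at -0.26 (-0.32 to -0.21), with median depths of 4469 and 9847 UMIs. Among ungated DCs the ratio was -0.11 (-0.15 to -0.08) in untreated and -0.06 (-0.08 to -0.04) in MC903 DCs. In DCs with Dkk2 and Nrg1 after MC903 it was -0.16 (-0.19 to -0.13), while cDC2-like barcodes after MC903 went the other way at 0.05 (0.02 to 0.08). Whether these ratios differ between gates was not tested. With each gate weighted as in BFP- DCs, the ratios were -0.09 in untreated and -0.13 in MC903 DCs. This weighting took in every gate, also those under 100 barcodes. The MC903 value thus rests in part on the MC903 BFP+ mature cDC1-like gate of 64 barcodes, at 4629 against 5935 CPM in BFP- DCs. A weighting over the compared gates only was not made. Psma5 was at -0.32 (-0.50 to -0.14) and -0.15 (-0.25 to -0.04) among ungated untreated and MC903 DCs.

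**Figure D4:**
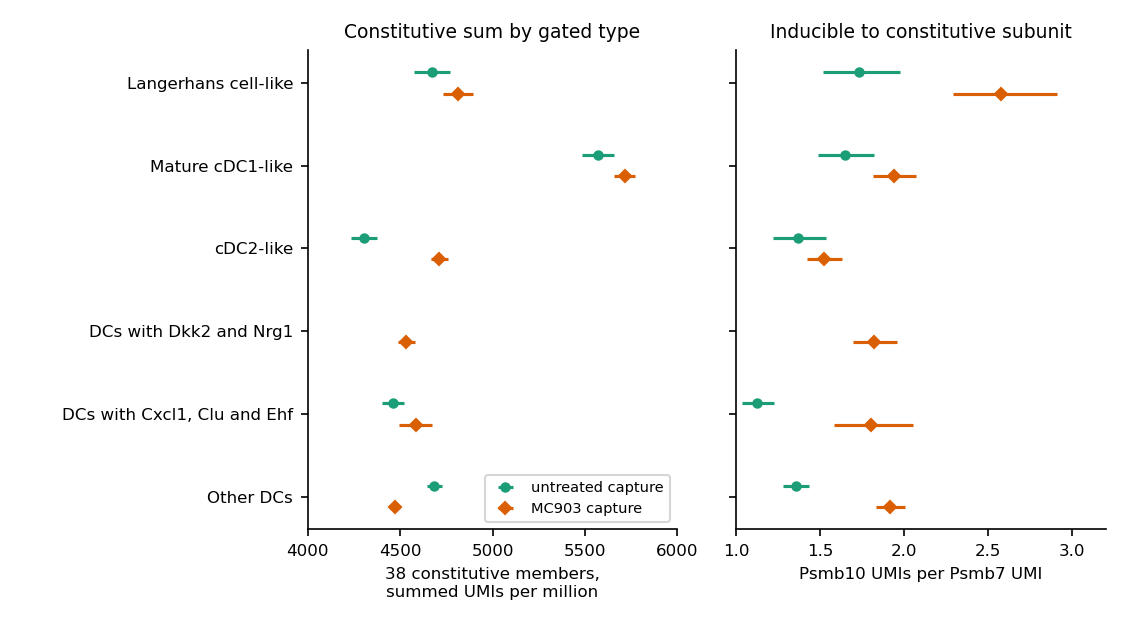
Left, summed CPM of the 38 constitutive members by gated DC type in the untreated (circles) and MC903 (diamonds) captures, on an axis that starts at 4000. Right, Psmb10 UMIs per Psmb7 UMI; bars are exact Poisson 95% intervals, mature cDC1-like cells are highest on the left, and MC903 points lie right of untreated points on the right.

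MC903 and untreated DCs had nearly equal constitutive sums. In BFP+ DCs the log2 ratio of MC903 to untreated was -0.02 (-0.03 to 0.00), in BFP- DCs 0.01 (-0.01 to 0.02), and over all DCs, hashtag or not, 0.01 (-0.00 to 0.02). Scaling matters here: TMM factors moved every ratio by 0.12 in BFP+, 0.14 in BFP- and 0.15 in all DCs, and median-of-ratios factors by 0.13, 0.16 and 0.16. By TMM the constitutive sums were at 0.10, 0.15 and 0.16. By total UMIs 13 and 17 of 35 members were above 0 in BFP+ and BFP- DCs, and by TMM 25 and 29. By median-of-ratios 28 and 29 were. The direction of the whole set between captures therefore depends on the scaling, whereas ratios between members do not.

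No member was 1.5-fold apart between captures, where 8.81% of 4940 genes were in BFP+ DCs, 10.8% of 5097 in BFP- DCs and 9.4% of 5009 in all DCs. The interval lay above 0 for 5 and 9 members in BFP+ and BFP- DCs, 14.3% and 25.7% of the members, where 23.8% and 23.2% of genes were. It lay below 0 for 8 and 8, 22.9% each, where 28% and 33.1% of genes were. By TMM these counts were 14 and 19 above 0 and 1 and 3 below 0, and by median-of-ratios 16 and 21 above and 1 and 2 below. Untreated BFP- DCs held at least 25% more of Psme4, Psme3 and Psmb7 than MC903 BFP- DCs, 8.57% of 35, and in BFP+ DCs no member differed that much. Across all genes 14.2% in BFP+ and 17.9% in BFP- DCs were that much higher in the untreated population. None of the members was 25% higher after MC903, where 11.6% and 12.1% of genes were.

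In the population sums the catalytic subunits differed in opposite directions between captures. Psmb7 was at 167 and 207 CPM in untreated BFP+ and BFP- DCs and at 140 and 161 after MC903, so both MC903 populations lay below both untreated populations. Its ratios were -0.26 (-0.36 to -0.16) and -0.36 (-0.45 to -0.27), and -0.14 and -0.22 by TMM. Psmb5 was at 123 and 127 in untreated and 143 and 150 in MC903 DCs, ratios of 0.21 (0.10 to 0.32) and 0.24 (0.13 to 0.35). Psmb6 was at 113 and 122 in untreated and 139 and 146 in MC903 DCs, ratios of 0.30 (0.19 to 0.42) and 0.26 (0.15 to 0.37). Both MC903 populations lay above both untreated populations for Psmb5 and for Psmb6. Among barcodes of 4000 to 12000 UMIs the Psmb5 ratio in BFP+ DCs was -0.01 (-0.18 to 0.17). Psmb2, a non-catalytic beta ring subunit, was at 123 and 129 in untreated and 149 and 149 in MC903 DCs, ratios of 0.28 and 0.21. The alpha subunit Psma6 was at 162 and 160 in untreated and 181 and 187 in MC903 DCs, ratios of 0.15 and 0.22.

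Other members with intervals below 0 in both populations were few. Psmd10, the assembly chaperone also called gankyrin, was at -0.25 (-0.39 to -0.10) and -0.27 (-0.40 to -0.14), and at -0.13 and -0.13 by TMM. Psmc6 was at -0.16 and -0.18, and at -0.04 and -0.04 by TMM. All of these TMM intervals for Psmd10 and Psmc6 included 0. Psmb4 was at -0.13 and -0.09, and by TMM at -0.01 in BFP+ and 0.05 in BFP- DCs. Psme3 was at -0.20 (-0.46 to 0.05) and -0.36 (-0.58 to -0.14), and Psme4 at -0.12 (-0.36 to 0.12) and -0.44 (-0.66 to -0.21). Psmc2, among the lowest in BFP+ DCs at -0.20, was at 0.03 in BFP- DCs. Psmd9 was at 0.25 (0.01 to 0.49) and -0.13 (-0.36 to 0.11), and Psmd5, below the level filter, at 0.00 and -0.31. Over all DCs the highest members were Psmb6 (0.28), Psma6 (0.23), Psmb5 (0.22) and Psmb2 (0.21), and the lowest of those past the level filter were Psme4 (-0.37), Psmb7 (-0.33) and Psmd10 (-0.21).

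**Figure D5:**
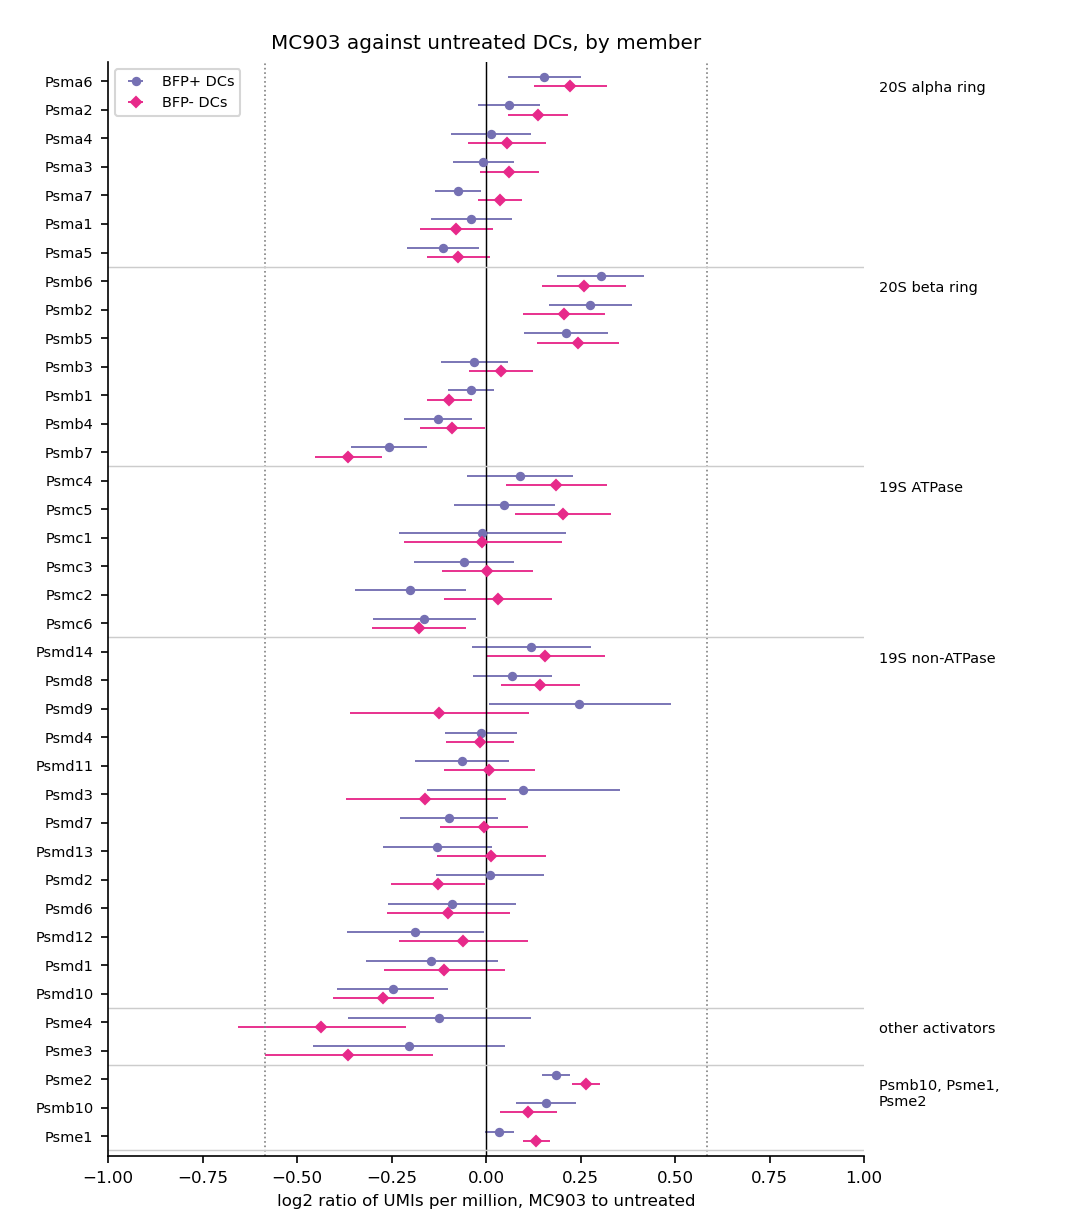
Log2 ratio of CPM of MC903 to untreated DCs for each of the 38 members past the low-level filter, in BFP+ (circles) and BFP- (diamonds) DCs, with exact Poisson 95% intervals and dotted lines at 1.5-fold. Psmb6, Psmb2 and Psmb5 lie right of 0 and Psmb7 left of 0 in both populations.

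The inducible subunits differed between captures to unequal extents. Psme2 was at 1124 and 1131 CPM in untreated BFP+ and BFP- DCs and at 1277 and 1359 after MC903, ratios of 0.18 (0.15 to 0.22) and 0.26 (0.23 to 0.30). Both MC903 values lay above both untreated values. Psme1 was at 1094 and 1167 in untreated and 1122 and 1281 in MC903 DCs, ratios of 0.04 (-0.00 to 0.07) and 0.13 (0.10 to 0.17), and the populations interleaved. Psmb10 was at 242 and 275 in untreated and 270 and 297 in MC903 DCs, ratios of 0.16 (0.08 to 0.24) and 0.11 (0.04 to 0.19), and its populations interleaved too. The retrocopy Psme2b, which could share reads with Psme2, held 81 to 397 UMIs against 7450 to 33695.

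Ratios between members of 1 population do not depend on the scaling. Psmb10 had 1.45 UMIs per Psmb7 UMI in untreated BFP+ (1.35 to 1.56) and 1.33 in untreated BFP- DCs (1.24 to 1.43), against 1.93 (1.84 to 2.03) and 1.85 (1.78 to 1.92) after MC903. The PA28 pair had 0.50 and 0.476 UMIs per constitutive UMI in untreated and 0.547 and 0.544 in MC903 DCs. Psme2 had 1.03 and 0.969 UMIs per Psme1 UMI in untreated and 1.14 and 1.06 in MC903 DCs.

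Within gated types the Psmb10 to Psmb7 ratio was higher in the MC903 capture too. It was 1.73 (1.52 to 1.97) and 2.58 (2.29 to 2.91) in Langerhans cell-like barcodes, and 1.12 (1.03 to 1.22) and 1.80 (1.58 to 2.05) in DCs with Cxcl1, Clu and Ehf. Ungated DCs had 1.35 (1.28 to 1.43) and 1.92 (1.83 to 2.00). Mature cDC1-like barcodes had 1.64 (1.49 to 1.82) and 1.94 (1.82 to 2.07), and in cDC2-like barcodes the intervals overlapped at 1.37 (1.22 to 1.53) and 1.52 (1.42 to 1.63). Which of the pair differed varied with the type. Psmb7 was at -0.50 (-0.71 to -0.29) in Langerhans cell-like barcodes, -0.40 in DCs with Cxcl1, Clu and Ehf and -0.39 in ungated DCs, but at -0.05 (-0.19 to 0.09) in mature cDC1-like and 0.02 (-0.13 to 0.17) in cDC2-like barcodes. Psmb10 was highest against its untreated level in DCs with Cxcl1, Clu and Ehf, at 0.28 (0.14 to 0.42). Psme2 had its largest capture ratio in cDC2-like barcodes, at 883 and 1277 CPM and 0.53 (0.48 to 0.59). Its smallest, among the gates compared and ungated DCs, was in DCs with Cxcl1, Clu and Ehf at 0.13. Psmb5 and Psmb6 were likewise furthest apart in cDC2-like barcodes, at 0.57 (0.41 to 0.73) and 0.42 (0.26 to 0.59), and near 0.05 in ungated DCs with intervals including 0. In Langerhans cell-like barcodes, mature cDC1-like barcodes and DCs with Cxcl1, Clu and Ehf, Psmb5 was at 0.07, 0.14 and 0.18, and each interval included 0. Psmb6 was at 0.28, 0.21 and 0.21 in the same order, and only the last interval included 0.

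Genes around the proteasome gave the background to these values. A list of 25 genes held assembly chaperones, ubiquitin receptors and shuttles, NRF1 and NRF2 with the protease Ddi2, and other genes of the pathway, and 23 of them passed the level filter. In the untreated and MC903 captures, 4 (17.4%) and 1 (4.35%) were at least 25% higher in BFP- DCs, where 13.2% and 6.6% of all genes were. None was that much higher in BFP+ DCs, and the medians were -0.15 and -0.17. Nfe2l2, which encodes NRF2, was the lowest at 91.4 against 136 CPM (-0.58) and 47.9 against 68.4 (-0.51). Sqstm1, the autophagy receptor p62, was at -0.45 and -0.26, and Adrm1, a ubiquitin receptor of the cap, was at -0.26 after MC903. Between captures 3 of the 23 were 25% higher in untreated BFP+ DCs and 3 in untreated BFP- DCs, 13% each, where 14.2% and 17.9% of all genes were, and none was that much higher after MC903. The medians were -0.12 and -0.17, and by TMM -0.0015 and -0.028. Nfe2l2 led here as well, at -0.93 (-1.08 to -0.78) and -0.99 (-1.11 to -0.88). The proteasome adaptor Ecpas was at -0.34 in BFP+ and Sqstm1 at -0.45 in BFP- DCs.

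The list of 13 interferon-gamma response genes had members on either side of 0. In the untreated capture 2 of 11 measured genes (18.2%) were at least 25% higher in BFP+ and 2 in BFP- DCs, where 6.87% and 13.2% of all genes were, with a median of -0.20. In the MC903 capture 1 of 10 (10.0%) was higher in BFP+ and 3 (30.0%) in BFP- DCs, where 4.26% and 6.6% of genes were, with a median of -0.21. The largest ratios were Cxcl9 at 1.36 (1.01 to 1.72), Ciita at 1.14 and Gbp4 at -0.76 in untreated DCs, and Ciita at 1.11, Gbp4 at -0.68 and Irf1 at -0.47 after MC903. Between captures 2 were that much higher after MC903 in BFP+ (18.2%) and in BFP- DCs (20%), where 11.6% and 12.1% of genes were. In each, 3 were that much higher in untreated DCs (27.3% and 30.0%), where 14.2% and 17.9% of genes were. The medians were -0.13 and -0.05, and by TMM -0.0088 and 0.09. Among the largest were Cxcl9 at -1.33, Ciita at 0.70 and Nlrc5, the class I transactivator, at -0.50 in BFP+ DCs, and Ciita at 0.74 and Irf1 at -0.48 in BFP- DCs.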

How the data were processed

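UMI counts for each gene and barcode were deposited by the authors. Per the file headers the matrices were written by Cell Ranger 3.1.0, and the submitters' processing notes name GRCm38; other settings are not given in the sources used here. Kept barcodes had 500 genes or more and no more than 10% of UMIs from mitochondrial genes. HTODemux of Seurat 5.3.0 (R 4.3.3, positive quantile 0.99) called hashtags, and no other doublet caller was run. Hashtag doublets were left out of the 4 populations. Sums over a whole capture, by DC type or over all DCs, kept barcodes of every hashtag call. Before the lineage gate these included 61 untreated and 152 MC903 hashtag doublets. Barcodes holding 2 or more markers of another lineage at 0.1% of UMIs were left out. A DC type needed 2 markers of its list and more detected markers than any other type, and barcodes with a tie counted as ungated. Types under 100 barcodes were not compared (the mature cDC1-like gate of 1 population, with 64, is given as a level). The fixed type mix used every gate, whatever its number of barcodes.

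UMIs were summed per population in Python 3.11.15 (scipy 1.17.1) and scaled to CPM. Members counted as apart had 20 CPM in the higher population and a ratio of 1.5 or more. Each comparison names Psmb10, Psme1, Psme2, Psmb5, Psmb6, Psmb7, Psme3, Psme4, the 4 highest and 4 lowest constitutive members with 200 UMIs, and the 3 largest ratios of each list, of which some are not reported here; other members were named after their values were seen. Members and lists were chosen with earlier results of these data known. Intervals were tested on simulated Poisson counts, where 94.6% to 95.5% of them held the set ratio. Such counts have no extra spread between barcodes or pools. The simulation therefore checks the computation and cannot show that the intervals are wide enough for these data.

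The alternatives were dominant hashtags (80% of at least 10 counts), barcodes of 4000 to 12000 UMIs, at most 5% mitochondrial UMIs, no lineage gate, TMM factors (edgeR 4.0.16), median-of-ratios factors, no level filter, a 25% threshold, 19S or 20S members only, and 3 markers per type. A fixed type mix, and leaving out barcodes with salivary transcripts, were added after seeing the data.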

Additional observations from a re-analysis of the deposited data

Results flagged for a closer look

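Differences between DC types went opposite ways in the 2 captures for 2 gates. The constitutive sum of cDC2-like barcodes against ungated DCs was at -0.12 (interval -0.15 to -0.10) in the untreated capture and at 0.08 (0.06 to 0.09) in the MC903 capture. For DCs with Cxcl1, Clu and Ehf it was at -0.07 and 0.04. The ungated DCs they are set against were themselves at 4684 and 4471 CPM. With 1 pool per population these differences between captures were not tested.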

How the results depend on the processing

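Of the alternative values for sums and counts of members, 52 stayed within the interval or 1.5 times the count, and 37 moved. For single members, 349 stayed, 93 moved and 1 whose interval had excluded 0 turned sign; 14 of the others also crossed 0, from intervals that included it (Psmb5, Psmd14 and Psme2 in the untreated reporter, Psmd5 in the MC903 reporter, and Psme3 and Psme4 in the BFP+ capture comparison). The cause was not tested. The untreated BFP+ to BFP- ratio of the constitutive sum (log2) was -0.085 in barcodes of 4000 to 12000 UMIs, -0.071 by TMM, -0.059 by median-of-ratios and -0.090 at a fixed type mix. After MC903 it was -0.16 at 5% mitochondrial UMIs, -0.10 by TMM, -0.10 by median-of-ratios, -0.17 for 19S members, -0.13 for 20S members and -0.13 at a fixed type mix. The MC903 to untreated ratio in BFP+ DCs was 0.0094 with dominant hashtags, -0.0405 at 4000 to 12000 UMIs, 0.10 by TMM, 0.12 by median-of-ratios and -0.041 for 19S members. In BFP- DCs it was 0.036 with dominant hashtags, 0.15 by TMM and 0.16 by median-of-ratios, and in all DCs -0.0091 at 4000 to 12000 UMIs, 0.16 by TMM, 0.17 by median-of-ratios and 0.020 for 20S members. Psmb5 in BFP+ DCs turned to -0.0078 at 4000 to 12000 UMIs.

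Members 1.5-fold apart went from 0 to 1 with dominant hashtags in the untreated reporter comparison (Psmd3, 65 and 582 UMIs). Without a level filter the count was 1 there, in BFP- DCs between captures and in all DCs (Psma8 each time, 3 to 23 UMIs a population). At 25% it was 3, 2, 3 and 2 in the untreated reporter, MC903 reporter, BFP- and all-DC comparisons. Requiring 3 markers gave 0.082 and 0.17 for Langerhans cell-like, 0.37 and 0.40 for mature cDC1-like barcodes (untreated and MC903), 0.23 for cDC2-like and 0.040 for Dkk2 and Nrg1 DCs after MC903; 82 MC903 barcodes with Cxcl1, Clu and Ehf were too few. Without salivary barcodes the MC903 cDC1-like ratio was 0.38. No paired analysis was possible because each population was 1 pool. Depth limits the least abundant members most, and Psma8 and Psmb11 allow no comparison.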
